A study of Mus musculus with 33 samples.

Results

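The sirtuins are the 7 members Sirt1 to Sirt7 of a family of NAD-dependent deacylases, and this account follows their transcripts in the lymphoid organs of mice that drank nicotinamide (NAM). Members were the genes whose symbol in the deposited table is Sirt1 to Sirt7. All 7 were found among 25757 genes with a symbol, and all 7 passed the filter on low values (a mean normalised read count of at least 10) under both tissue labels.

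A sirtuin removes an acetyl or other acyl group from a protein lysine and consumes NAD in doing so, and NAM is released as a product of that reaction and inhibits the enzyme. NAM is also a precursor from which cells rebuild NAD, through the enzyme encoded by Nampt. Sirt1, Sirt6 and Sirt7 are mainly nuclear, Sirt2 is mainly cytosolic, and Sirt3, Sirt4 and Sirt5 are mitochondrial. In lymphoid cells SIRT1 is best known for deacetylating p53, FOXO factors and the NF-kB subunit RelA. Inhibition of the enzymes and abundance of their transcripts are separate quantities, and only the transcripts were measured here.

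Spleens and lymph nodes were taken from C57Bl/6 mice that bore no tumour, for which the labels name no allele or further agent and no age, either untreated or after 1, 3 or 14 days on 0.5% NAM in the drinking water, which was renewed every 7 days by the labels and more often by the study's methods. Libraries under the spleen label numbered 20, with 5 in each group, and those under the lymph node label numbered 13, namely 3 untreated and 2, 4 and 4 after 1, 3 and 14 days. Each library was made from polyadenylated bulk RNA and read in pairs of 75 bases. The labels do not say whether an animal gave both organs or whether organs were pooled, so p-values measure the spread between libraries.

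The tissue labels went against defining markers in every library. Glycam1, a mucin of lymph node venules, had a normalised read count of 108200 to 214200 in the 20 libraries labelled spleen and of 1.59 to 12.4 in the 13 labelled lymph node. Nkx2-5 was at 0.0 in all 20 libraries labelled spleen and at 167 to 267 in those labelled lymph node, and Spic, a factor of splenic red pulp macrophages, was at 774 to 1295 and at 6117 to 10490, respectively. Tissues are therefore called the spleen label and the lymph node label. Depth was 18325061 to 54830743 whole reads per library of the spleen label and 30424968 to 46733974 per library of the lymph node label. Reads on a single member in a single library ranged from 77 (Sirt4) to 2613 (Sirt7), and such counts bound the precision of each value.

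On mm10, the table places Sirt1 on chromosome 10 from 63319005 to 63339039 and Sirt6 on the same chromosome from 81621786 to 81627608. Sirt2 lies on chromosome 7 from 28766752 to 28788665 and Sirt3 on chromosome 7 from 140863664 to 140882309. Sirt4 lies on chromosome 5 from 115478010 to 115484484, Sirt5 on chromosome 13 from 43365505 to 43395203 and Sirt7 on chromosome 11 from 120618371 to 120625240. The Sirt7 entry also names the microRNA gene Mir6936, which lies inside it. In the GENCODE annotation of the same build, Sirt3 shares 418 exon bases with Ric8a and 342 with Psmd13, both on the opposite strand, and Sirt7 shares 124 exon bases with Mafg on its own strand. Sirt2 shares 42 exon bases with Nfkbib on the opposite strand. Whether the counting used strand is not given in the sources used here, so reads from those stretches may be shared between genes.

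Sirt1 and Sirt5 are shown by the sequence just before their start sites, because they were the members that passed the test as higher under the spleen label than under the lymph node label in untreated animals. The sequences are from RefSeq on GRCm38.p6 and stop where annotated exons begin. GENCODE carries Sirt1 further upstream, to 63381704, so its stretch lies before the RefSeq start but inside the GENCODE gene. They cover chr10:63339051-63339285 on the minus strand, 235 bases, for Sirt1 and chr13:43365285-43365495 on the plus strand, 211 bases, for Sirt5. Capitals mark matches on either strand to the 4 motifs searched, the E-box CACGTG, the GC box GGGCGG, the CCAAT box CCAAT and the TATA box TATAAA.
Sirt1: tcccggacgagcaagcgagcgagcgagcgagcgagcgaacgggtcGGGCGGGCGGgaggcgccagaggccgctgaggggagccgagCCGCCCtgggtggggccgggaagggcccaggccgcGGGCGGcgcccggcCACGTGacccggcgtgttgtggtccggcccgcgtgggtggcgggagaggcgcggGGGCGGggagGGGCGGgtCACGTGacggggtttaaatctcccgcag
Sirt5: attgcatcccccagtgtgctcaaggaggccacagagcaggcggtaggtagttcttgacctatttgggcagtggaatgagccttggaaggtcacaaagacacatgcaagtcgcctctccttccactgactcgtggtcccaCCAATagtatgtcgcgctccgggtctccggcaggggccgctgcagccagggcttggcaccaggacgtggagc
The 250 bases before the Sirt1 start held 2 E-boxes and 6 GC boxes, of which the first pair overlap, and 0 CCAAT or TATA boxes. An E-box was found in 6.02% and a GC box in 32.7% of 32851 promoters of the same length. With 39 CpG dinucleotides, the Sirt1 window had more than 98.4% of those promoters, whose median was 6. The Sirt5 window held 1 CCAAT box, found in 33.9% of promoters, 1 GC box outside the stretch printed, and 0 E-boxes or TATA boxes (the latter in 12.4% of promoters). A match describes the letters and not the binding of a factor. The stretches before Sirt3 and Sirt7 lie wholly in annotated exons of their own or a neighbouring gene and are not shown.

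Levels of different members were compared as RPKM computed from the recovered reads, since a longer transcript collects more reads. With the union of annotated exons as length, Sirt2 (8.85 ± 0.433) and Sirt7 (8.36 ± 0.518) were the highest of the family in untreated libraries under the spleen label (SD, n = 5), and their mean ± SD ranges overlapped. Sirt1 followed at 4.94 ± 0.447, Sirt6 at 3.54 ± 0.324, Sirt4 at 2.24 ± 0.374, Sirt3 at 1.60 ± 0.103 and Sirt5 at 1.38 ± 0.155. Sirt7 (10.8 ± 0.385) exceeded Sirt2 (9.24 ± 0.550) in untreated libraries under the lymph node label (SD, n = 3), and the other 5 kept the same order. The neighbours Sirt3 and Sirt5 under the spleen label, and Sirt4 and Sirt3 under the lymph node label, also had overlapping mean ± SD ranges. With the median length of protein-coding transcripts in place of the exon union, Sirt7 (35.3 ± 2.19) and Sirt2 (24.3 ± 1.19) again led under the spleen label, but Sirt3 (8.69 ± 0.558) then came next, above Sirt1 (6.90 ± 0.623), and Sirt4 (3.12 ± 0.521) came last. The position of Sirt2 and Sirt7 above the other 5 was common to both lengths used. The lengths of the regions that were counted are not given in the sources used here. For other bulk libraries the study's methods count only regions free of alternative splicing. Bases common to all protein-coding transcripts were 1529 for Sirt2, 248 for Sirt6 and 0 for Sirt5 and Sirt7. Levels on such a length were not computed, and the order may differ there.

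The summed normalised read count of the 7 members differed between groups of a label by less than the largest SD within a group. With the spleen label it was 4491 ± 106 untreated and 4544 ± 191, 4432 ± 111 and 4574 ± 172 after 1, 3 and 14 days of it (SD, n = 5 each). With the lymph node label it was 5498 ± 139 untreated (n = 3), 5574 ± 382 at 1 day (n = 2), 5487 ± 181 at 3 days (n = 4) and 5613 ± 207 at 14 days (n = 4). Sirt2 and Sirt7 made up 30.3% ± 1.95 and 29.3% ± 1.17 of that sum in untreated libraries of the spleen label. In those of the lymph node label the shares were 29.7% ± 0.990 and 35.7% ± 0.217.

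**Figure D1:**
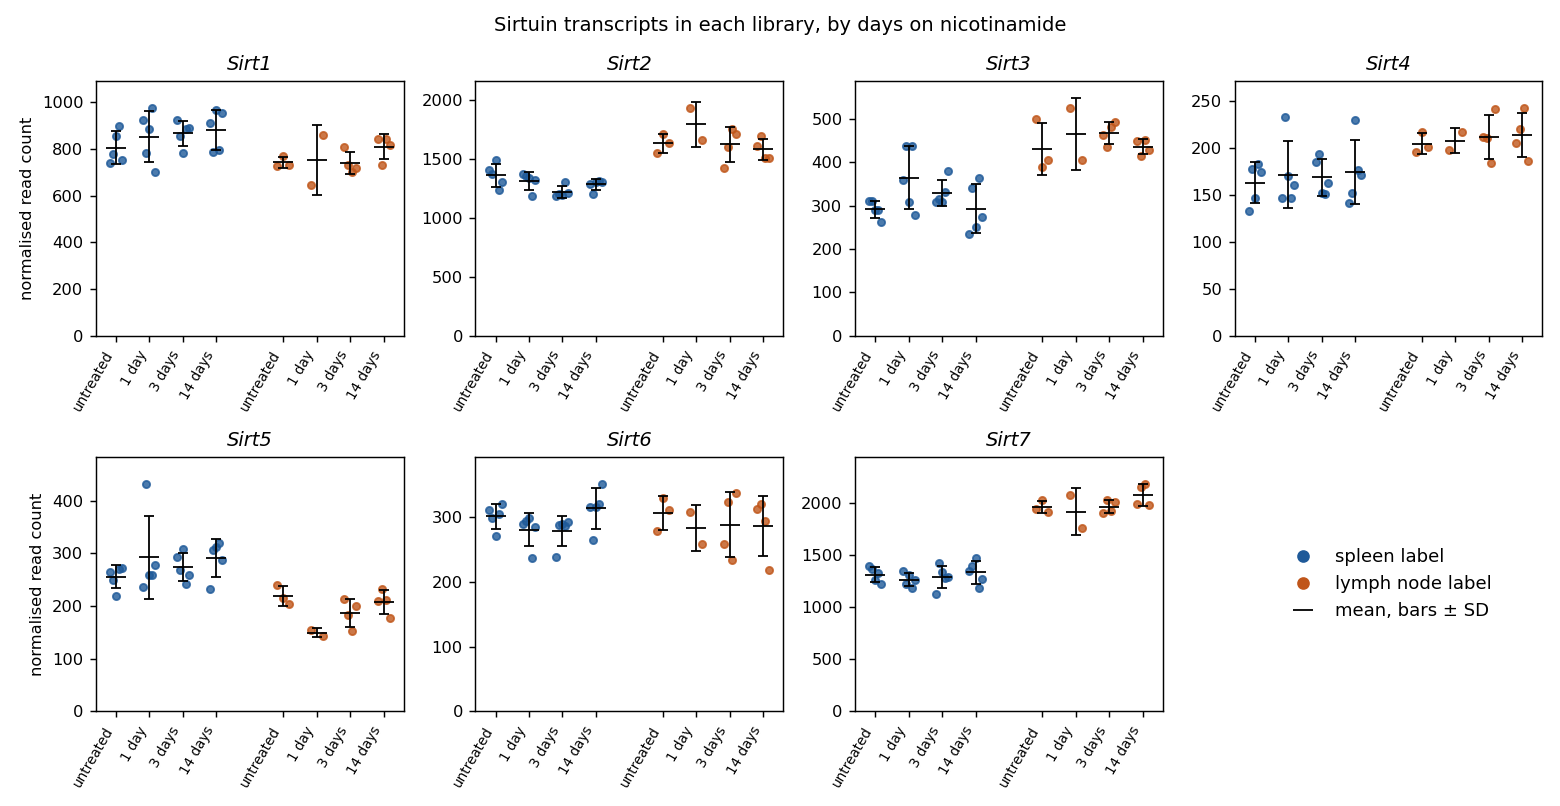
Normalised read count (y axis, from 0) of each sirtuin in every library (points) with the group mean and SD (black), by days on NAM (x axis), for the 20 libraries of the spleen label (blue) and the 13 of the lymph node label (orange), which were scaled separately. Each NAM group overlaps the untreated group of its label for every member except Sirt5 under the lymph node label, where both libraries at 1 day (143 and 156) lie below the 3 untreated ones (203 to 241).

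Most members varied less between libraries of a group than genes in general did. The residual SD on the log2 scale was 0.08 for Sirt2, 0.10 for Sirt7, 0.13 for Sirt6 and 0.14 for Sirt1 under the spleen label, against a median of 0.23 over 18243 genes, while Sirt3 (0.22), Sirt5 (0.22) and Sirt4 (0.23) lay close to that median. With the lymph node label Sirt7 (0.08) was the steadiest, and Sirt6 (0.22) alone exceeded the median of 0.17 over 18215 genes.

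Whether NAM changed the abundance of sirtuin transcripts was asked at each duration against untreated libraries of the same label. Under the spleen label, 0 of 7 members passed limma with Benjamini-Hochberg adjustment over all genes at 1 day, where 16.6% of all genes passed, 0 of 7 at 3 days, where 5.55% passed, and 0 of 7 at 14 days, where 0.0% passed. In the lymph node label the counts were 0 of 7 at 1 day, 0 of 7 at 3 days and 0 of 7 at 14 days, against 1.21%, 1.24% and 0.791% of all genes. The latter stood for 221, 226 and 144 genes, which became 66 to 125, 85 to 302 and 31 to 159 with 1 library left out and were fewest without untreated replicate 2. The 1013 genes called at 3 days with the spleen label became 158 (without replicate 3 at 3 days) to 2782 (without replicate 1). Both edgeR and DESeq2 on the recovered reads also called 0 members in each of the 6 comparisons. With an unadjusted p under 0.05 as the criterion, the members were Sirt3 at 1 day and Sirt2 at 3 days under the spleen label and Sirt5 at 1 day under the lymph node label. Under the spleen label 5628 of 18243 genes met that criterion at 1 day and 4007 at 3 days.

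The 42 changes (7 members, 3 durations, 2 labels) ranged from a log2 fold change of -0.55 to 0.30, and the lowest limma adjusted p was 0.111. In 41 of them the whole 95% confidence interval lay within a 1.5-fold change in either direction, and the exception was Sirt5 under the lymph node label at 1 day. The median change of the 7 members under the spleen label was 0.06 on day 1, 0.06 on day 3 and 0.05 on day 14, beside 0.01, 0.00 and 0.00 over all genes. It was 0.01, -0.01 and 0.03 under the lymph node label, beside 0.00 over all genes at each duration. A missed threshold does not show that a transcript held still. For 41 changes the 95% interval of the main fit excluded 1.5-fold, each taken singly and without allowance for 42 intervals. That of Sirt3 at 1 day under the spleen label came closest, with an upper bound of 1.49-fold, and its change rose to as much as 0.39 with 1 library left out.

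**Figure D2:**
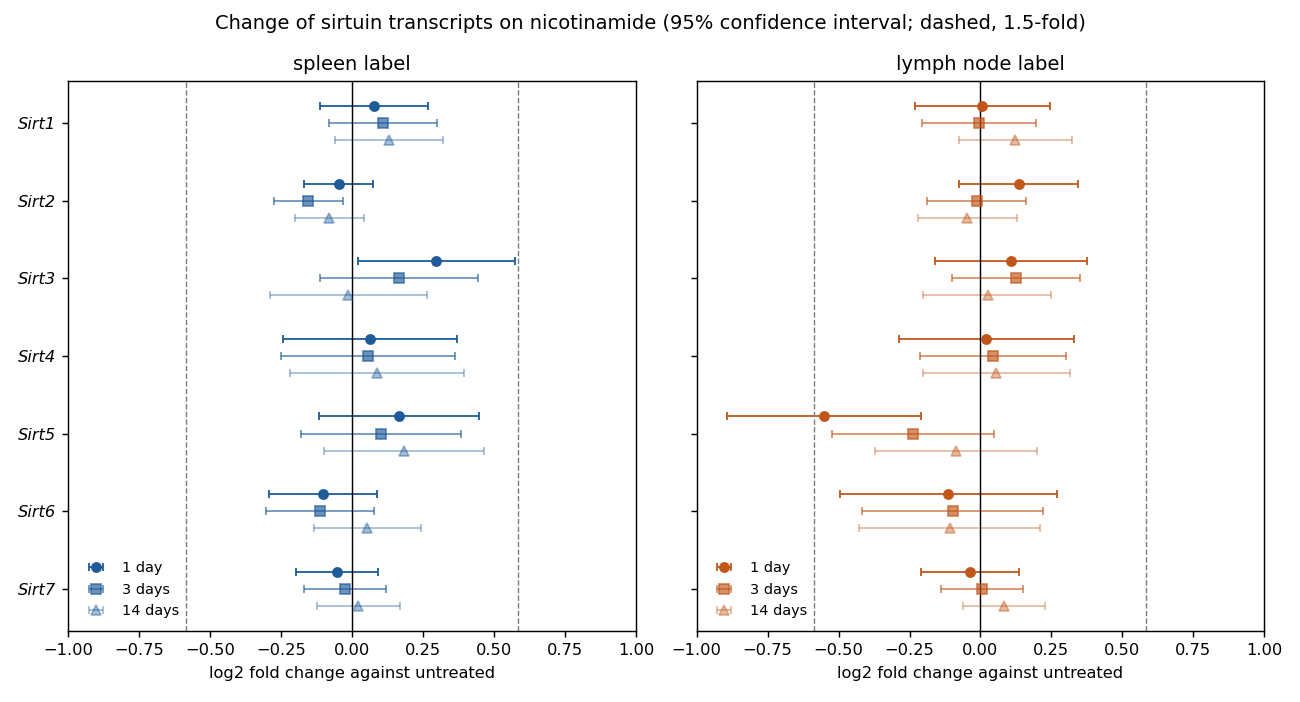
Log2 fold change against untreated (x axis) of each sirtuin (y axis) at 1 day (circles), 3 days (squares) and 14 days (triangles) under each label, with 95% confidence intervals from limma and dashed lines at 1.5-fold. Sirt5 under the lymph node label at 1 day (-0.55) is the one interval that crosses a dashed line.

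Of the nuclear members, Sirt1, which deacetylates transcription factors, gave log2 fold changes under the spleen label of 0.08, 0.11 and 0.13 after 1, 3 and 14 days (limma adjusted p = 0.600, 0.526 and 1.0). Its 5 untreated libraries had normalised read counts of 738, 776, 857, 899 and 754, and the 5 at 14 days had 910, 785, 965, 793 and 952, so that 2 of the latter lay inside the untreated range. Its changes under the lymph node label were 0.01, -0.01 and 0.12. The 2 libraries at 1 day had 648 and 858 and bracketed the untreated 726, 768 and 733.

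Sirt6, a deacetylase of histones linked to telomere upkeep and DNA repair, gave log2 fold changes of -0.10, -0.11 and 0.05 with the spleen label and of -0.11, -0.10 and -0.11 under the lymph node label, with 95% intervals from -0.50 to 0.27 at the widest. Its 20 libraries under the spleen label ranged from 236 to 350 normalised read counts with a median of 293, and the 13 under the lymph node label from 218 to 337 with a median of 308. Every NAM group of Sirt6 overlapped its untreated group. Sirt7, a nucleolar sirtuin linked to ribosomal RNA transcription, moved little, by -0.05, -0.03 and 0.02 with the spleen label and by -0.04, 0.01 and 0.08 under the lymph node label. Its widest 95% interval against untreated was -0.21 to 0.14, at 1 day under the lymph node label.

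Sirt2, the cytosolic member and a deacetylase of tubulin, was lowest at 3 days under the spleen label. Its normalised read counts were 1408, 1374, 1489, 1236 and 1302 in untreated libraries, 1372, 1360, 1339, 1187 and 1323 at 1 day, 1187, 1204, 1200, 1304 and 1212 at 3 days, and 1290, 1207, 1307, 1316 and 1306 at 14 days. All but 1 of the libraries at 3 days lay below every untreated one, and that 1 lay inside the untreated range. The log2 fold change at 3 days was -0.15 (95% interval -0.28 to -0.03), with an unadjusted p of 0.0150 and a limma adjusted p of 0.120. Nfkbib, which overlaps Sirt2, changed by -0.20 in the same comparison (limma adjusted p = 0.225), and the part of shared reads was not tested. A principal component with 13.6% of the variance over the 20 libraries set the libraries at 1 day and 4 of those at 3 days apart from the untreated ones, those at 14 days and replicate 1 at 3 days. The labels give no preparation or sequencing batch, so at 1 day treatment and such a batch cannot be told apart. Depth also moved with the group, at 43632016 to 54830743 reads in the 5 libraries at 3 days and 18325061 to 31486631 in the untreated ones, and its part in the Sirt2 value was not tested. Leaving out 1 library at a time gave changes of -0.19 to -0.12 for Sirt2 at 3 days, with limma adjusted p of 0.0796 to 0.245. The lymph node label gave 0.13, -0.01 and -0.05 for Sirt2 after 1, 3 and 14 days.

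Sirt5, a mitochondrial desuccinylase and demalonylase, gave the largest change of the family, at 1 day under the lymph node label. The normalised read counts were 241, 215 and 203 in untreated libraries and 156 and 143 at 1 day. The libraries at 3 days had 213, 183, 152 and 200, and those at 14 days had 209, 232, 212 and 177. Both libraries at 1 day lay below all untreated ones, so that groups did not overlap for 1 of 7 members in that comparison and for 32.6% of all genes. In the other 5 comparisons against untreated, groups did not overlap for 0 of 7 members, beside 11.9%, 5.06% and 0.548% of all genes in the 3 of the spleen label (1, 3 and 14 days) and 15.3% and 11.5% in the other pair of the lymph node label (3 and 14 days).

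At 1 day the log2 fold change of Sirt5 was -0.55 (SE 0.16, 95% interval -0.89 to -0.21), or 0.682 times the untreated level, with an unadjusted p of 0.00335 and a limma adjusted p of 0.111. It was -0.24 at 3 days (95% interval -0.52 to 0.05) and -0.09 at 14 days (-0.37 to 0.20). The libraries at 14 days stood 0.47 above those at 1 day (unadjusted p = 0.00748, limma adjusted p = 0.189).

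Several marker lists moved with the libraries at 1 day under the lymph node label. The summed normalised read count of 6 pancreas markers was 85090 in replicate 1 and 1093 in replicate 2, beside 1196 to 1268 in untreated libraries, and replicate 1 stood apart from the other 12 on a principal component with 18.1% of the variance. The sum of 8 erythroid markers was 14430 to 20690 at 1 day and 21240 to 31940 untreated, and that of 5 neutrophil markers was 24780 to 33380 and 12160 to 22550. The sum of 5 T cell markers was 26230 to 28300 at 1 day and 23210 to 24540 untreated. Of these lists 0 markers stayed at 3 reads or fewer in both libraries at 1 day, and in untreated libraries 3 of the 6 pancreas markers did. The change of Sirt5 was -0.61 without replicate 1 (limma adjusted p = 0.246) and -0.49 without replicate 2 (limma adjusted p = 0.331), where the library that stayed was assumed to vary like the other groups. The part of the erythroid, neutrophil and T cell differences was not tested. In bulk RNA, fewer cells of a type and less RNA per cell cannot be told apart.

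Under the spleen label, Sirt5 differed in the other direction but with wide spread. The counts were 265, 249, 220, 271 and 273 in untreated libraries and 237, 432, 258, 260 and 278 at 1 day. Replicate 2 stood far above the untreated range, replicate 5 just above it, and the other 3 lay below the untreated median. The change at 1 day was 0.17 (95% interval -0.12 to 0.45, limma adjusted p = 0.428), and it was 0.02 without replicate 2 (limma adjusted p = 0.932). At 3 and 14 days it was 0.10 and 0.18 (limma adjusted p = 0.718 and 1.0).

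Sirt3, the main deacetylase of the mitochondrial matrix, gave the highest positive value of the family, at 1 day under the spleen label. The untreated libraries had 310, 310, 289, 290 and 262 normalised read counts and those at 1 day had 359, 438, 309, 438 and 278. At 1 day 2 libraries lay far above every untreated one, 1 lay above by less and 2 lay inside the untreated range. The log2 fold change was 0.30 (95% interval 0.02 to 0.58), with an unadjusted p of 0.0376 and a limma adjusted p of 0.135. At 3 days the counts were 307, 316, 309, 330 and 379 (change 0.17, limma adjusted p = 0.509). At 14 days they were 235, 342, 252, 363 and 274 (change -0.01, limma adjusted p = 1.0), with 2 libraries above and 2 below all untreated ones.

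The 2 libraries with the highest Sirt3 at 1 day were also the 2 with the most adipocyte marker transcript. The summed normalised read count of 8 adipocyte markers was 456000 in replicate 2 and 237000 in replicate 4, 106700 to 151800 in the other 3, and 33440 to 182000 in untreated libraries. Of the 8, 0 stayed at 3 reads or fewer throughout a group of this label. With the mean log2 adipocyte level as a covariate, the change of Sirt3 at 1 day was 0.18 (limma adjusted p = 0.320) and that of Sirt5 was 0.05 (limma adjusted p = 0.822). Leaving out replicate 2 gave 0.23 for Sirt3 (limma adjusted p = 0.289), and leaving out replicate 4 gave 0.23 (limma adjusted p = 0.297). Over all 10 single omissions it ranged up to 0.39, the value without replicate 5, and the limma adjusted p ranged from 0.0503 to 0.297. Psmd13, a proteasome subunit gene that overlaps Sirt3, rose by 0.33 in the same comparison (limma adjusted p = 0.00757), and the part of shared reads was not tested. The lymph node label gave changes of 0.11, 0.13 and 0.03 for Sirt3 (limma adjusted p = 0.750, 0.626 and 0.962), the first of which was -0.08 without replicate 1 and 0.29 without replicate 2.

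**Figure D3:**
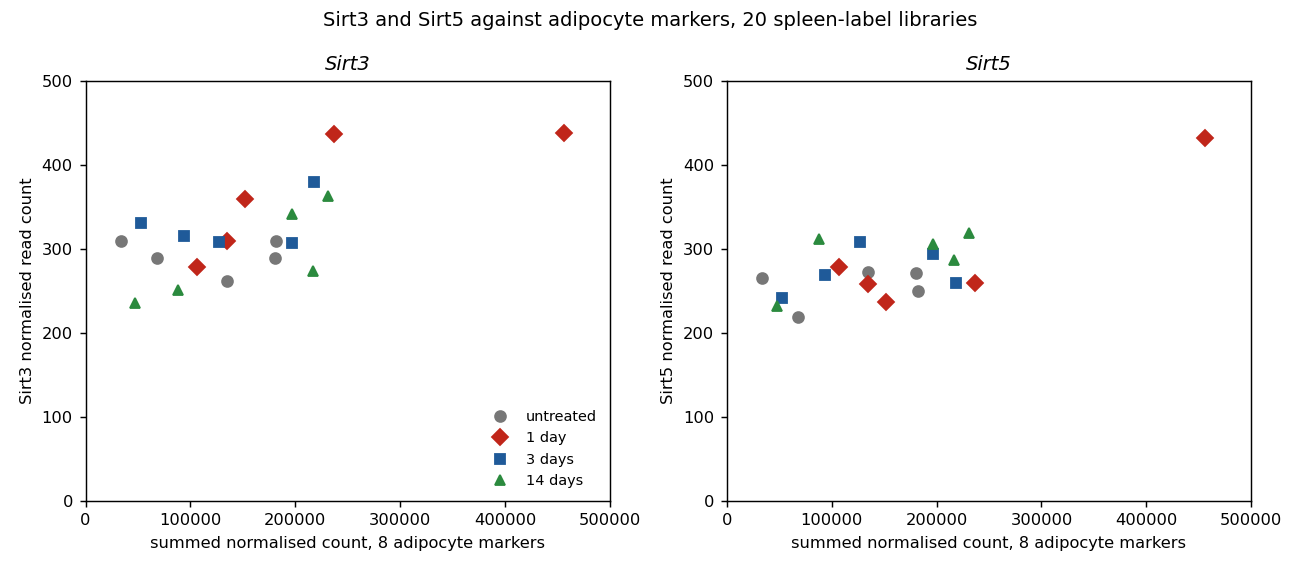
Normalised read count of Sirt3 (left) and Sirt5 (right) on the y axis against the summed normalised read count of 8 adipocyte markers on the x axis, 1 point per library of the spleen label, with colour and shape for the group. The library at 456000 on the x axis is replicate 2 at 1 day, with 438 for Sirt3 and 432 for Sirt5.

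Sirt4, a mitochondrial sirtuin linked to glutamine and leucine metabolism, had fewer reads than Sirt5 under the spleen label (77 to 289 against 148 to 574 per library) but not under the lymph node label (182 to 314 against 128 to 269). It gave changes of 0.06, 0.06 and 0.09 with the spleen label and of 0.02, 0.05 and 0.06 under the lymph node label. Its normalised read count ranged from 133 to 233 over the 20 libraries under the spleen label, with a median of 166, and from 184 to 242 over the 13 under the lymph node label, with a median of 211. Every NAM group of Sirt4 overlapped its untreated group, and the highest 95% bound of its changes was 0.39, at 14 days under the spleen label.

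Durations were also set against each other. Under the spleen label, 0 of 7 members passed for 3 days against 1 day, 0 of 7 for 14 days against 1 day and 0 of 7 for 14 days against 3 days, beside 0.00548%, 10.6% and 1.05% of all genes by limma. The same comparisons under the lymph node label gave 0 of 7 each, beside 0.357%, 0.401% and 0.011% of all genes. With 1 library left out the 192 genes called for 14 days against 3 days under the spleen label became 0 to 2144 (the highest without replicate 1 at 3 days) and the 1940 for 14 days against 1 day became 1214 to 1816, while the 65, 73 and 2 of the lymph node label became 14 to 68, 17 to 128 and 0 to 9. An unadjusted p under 0.05 was reached by Sirt3 for 14 days against 1 day under the spleen label (log2 difference -0.31, limma adjusted p = 0.145). In that comparison 4694 of 18243 genes reached it. Sirt5 did so for 14 days against 1 day under the lymph node label, as given above. Both edgeR and DESeq2 called 0 members in each comparison.

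Whether the change on NAM differed between the labels was tested with interaction terms. At 1 day 0 of 7 members passed, beside 1.69% of all genes, at 3 days 0 of 7, beside 0.735%, and at 14 days 0 of 7, beside 0.14%. The fit took the labels as separate animals, since shared ones are not named. These shares of all genes were themselves unstable, the 290, 126 and 24 genes called becoming 58 to 413, 33 to 883 and 4 to 26 with 1 library left out. Sirt5 came closest, with a change at 1 day that was 0.72 higher on the log2 scale under the spleen label than under the lymph node label (95% interval 0.26 to 1.17, unadjusted p = 0.00315, limma adjusted p = 0.0862), and edgeR gave an adjusted p of 0.0812. The other 6 differences at 1 day lay between -0.18 and 0.19. At 3 and 14 days the Sirt5 differences were 0.34 and 0.27 (limma adjusted p = 0.496 and 1.0).

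Members passed a test in 1 comparison, that of the labels in untreated animals. Sirt1 and Sirt5 were higher under the spleen label, Sirt3 and Sirt7 were lower, and Sirt2, Sirt4 and Sirt6 did not pass the test. Thus 4 of 7 members passed limma with adjustment over 18581 genes, beside 64.0% of all genes, and groups did not overlap for 4 of 7, beside 59.8% of all genes, so the members' shares were near the background. The deposited values of the labels had been scaled separately, and reads of all 33 libraries were therefore rescaled together for this comparison. Values in the next paragraph are normalised read counts on that joint scale.

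Sirt7 differed most, with 1473, 1441, 1322, 1383 and 1273 in the spleen label against 1855, 1922 and 1813 in the lymph node label, a log2 ratio of -0.44 (95% interval -0.58 to -0.29, limma adjusted p = 4.28e-06). Sirt3 had 328, 326, 304, 302 and 273 against 476, 368 and 385, a log2 ratio of -0.41 (95% interval -0.70 to -0.12, limma adjusted p = 0.0119). Both were thus lower in all 5 libraries of the spleen label than in any of the 3 of the lymph node label. Sirt5 had 280, 262, 231, 282 and 284 against 230, 204 and 193, a log2 ratio of 0.36 (95% interval 0.06 to 0.66, limma adjusted p = 0.0355). Sirt1 had 780, 816, 901, 936 and 786 against 692, 728 and 695, a log2 ratio of 0.26 (95% interval 0.05 to 0.46, limma adjusted p = 0.0283). The lowest library of the spleen label stood only just above the highest of the lymph node label for Sirt5 (230.7 against 229.7).

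Sirt2, Sirt4 and Sirt6 gave log2 ratios of -0.12 (95% interval -0.27 to 0.03), -0.20 (-0.50 to 0.11) and 0.12 (-0.14 to 0.38). Only Sirt7 passed under every alternative run. On the separately scaled deposited values, where the median over all genes was -0.15 instead of -0.01, Sirt1 (0.11, limma adjusted p = 0.326) and Sirt5 (0.22, limma adjusted p = 0.199) did not pass, while Sirt2 (-0.27, limma adjusted p = 0.00178) did. Leaving out 1 of the 8 libraries ended the call of Sirt1 in 4 cases (lymph node label replicates 1 and 3, spleen label replicates 3 and 4) and of Sirt5 in 5 (lymph node label replicates 2 and 3, spleen label replicates 1, 4 and 5). The call of Sirt3 was lost without lymph node label replicate 1 (-0.30, limma adjusted p = 0.107). The count of members passing was 2 without lymph node label replicate 1 or 3 and without spleen label replicate 4.

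Cell-type markers and overlapping genes also differed between these libraries. The sum of 5 B cell markers was 56690 to 73280 in untreated libraries of the spleen label and 114800 to 120100 in those of the lymph node label, that of 5 T cell markers 32000 to 46270 and 23210 to 24540, and that of 8 erythroid markers 132 to 199 and 21240 to 31940. For adipocyte markers the sums were 33440 to 182000 and 1237 to 1581. Nfkbib, which overlaps Sirt2, was higher under the spleen label (log2 ratio 0.37, limma adjusted p = 0.00191). Psmd13 and Ric8a, which overlap Sirt3, were lower under the spleen label as Sirt3 was (log2 ratio -0.31 and -0.19, limma adjusted p = 0.00121 and 0.0197). Mafg, which overlaps Sirt7, had a ratio of the opposite sign (0.21, limma adjusted p = 0.112). The part of cell makeup in the differences of Sirt1, Sirt3, Sirt5 and Sirt7 was not tested, nor was that of shared reads for Sirt3.

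**Figure D4:**
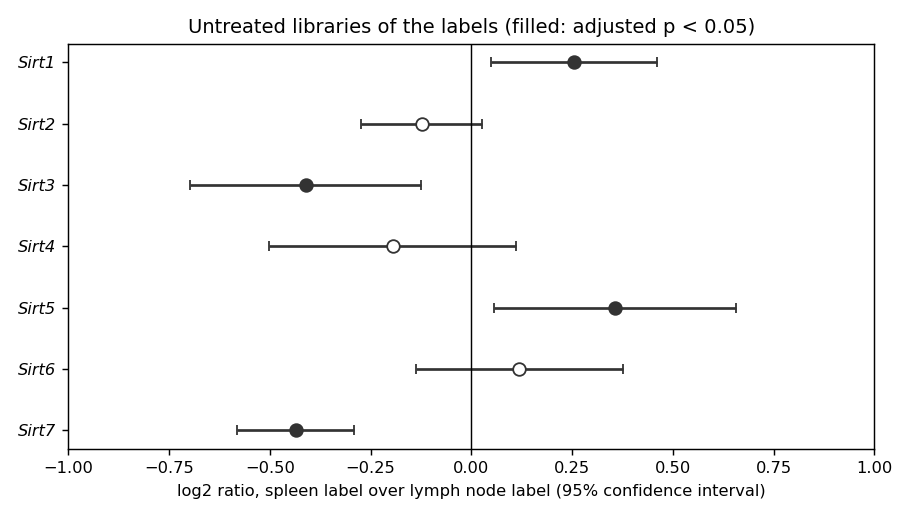
Log2 ratio of the spleen label to the lymph node label (x axis) in untreated libraries for each sirtuin (y axis), with 95% confidence intervals from limma on jointly scaled reads of 5 and 3 libraries. Filled points passed an adjusted p under 0.05, 2 of them above 0 (Sirt1, Sirt5) and 2 below 0 (Sirt3, Sirt7).

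Genes that act with the sirtuins included some that passed the test at 1 day under the spleen label, where the 7 sirtuins did not. Lists of regulators, substrates, other deacetylases and NAD enzymes were read against the share of all genes called at that duration, 8.56% higher and 8.05% lower. Of 7 sirtuin regulators 1 rose and 3 fell, with a list median of -0.25 beside 0.01 over all genes. E2f1, a cell cycle factor that activates Sirt1 transcription, fell by 0.52 on the log2 scale (limma adjusted p = 0.00728), and its normalised read count went from 290 ± 40.2 to 202 ± 25.4 (SD, n = 5 each). Hic1, a repressor of Sirt1 transcription, fell by 0.58 on the log2 scale (limma adjusted p = 0.0457), and Rps19bp1, which encodes an activator of SIRT1, rose by 0.27 (limma adjusted p = 0.0350). Sirt1 itself changed by 0.08 in that comparison, as given above.

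Of 17 genes listed for nuclear and cytosolic sirtuin substrates, a list that also holds Elk4, 0 rose and 5 fell, with a list median of -0.02. With 1 library left out 3 to 5 fell and 0 to 1 rose, and 3 fell without replicate 2 at 1 day. The transcription factor genes Elk4 (-0.74, limma adjusted p = 0.00699), whose product is known as a partner that brings SIRT7 to promoters and not as a substrate, Rela (-0.44, limma adjusted p = 0.00665) and Foxo1 (-0.43, limma adjusted p = 0.00334) fell most. The normalised read count of Rela went from 3437 ± 384 to 2537 ± 342 and that of Foxo1 from 3466 ± 106 to 2581 ± 285 (SD, n = 5 per group). Of 13 genes for mitochondrial substrates, 11 passed the filter, and 4 of these rose and 0 fell, with a median of 0.25. Acadl, an enzyme of fatty acid oxidation, rose by 0.65 (limma adjusted p = 0.0313), Ndufa9, a subunit of respiratory complex I, by 0.46 (limma adjusted p = 0.00262), and Mlycd, malonyl-CoA decarboxylase, by 0.25 (limma adjusted p = 0.0481). Without replicate 2 at 1 day, the library richest in adipocyte markers, 2 of the 11 rose.

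Of the 11 zinc-dependent histone deacetylases, which do not use NAD, 0 rose and 4 fell (median -0.02). Hdac9 fell by 0.58 on the log2 scale (limma adjusted p = 0.00536), Hdac4 by 0.45 (limma adjusted p = 0.00788) and Hdac7 by 0.30 (limma adjusted p = 0.00997). Of 16 genes of NAD supply and use, 1 rose and 1 fell (median 0.07), and with 1 library left out 0 to 1 rose and 1 to 2 fell. Nnmt, which methylates NAM for excretion, went from 278 ± 110 to 774 ± 430 (log2 fold change 1.44, limma adjusted p = 0.0260), and Parp2, a NAD-consuming poly(ADP-ribose) polymerase, from 684 ± 25.1 to 557 ± 35.2 (-0.30, limma adjusted p = 0.0159; SD, n = 5 each). The call of Nnmt was lost without replicate 2 or 4 at 1 day, which had the most adipocyte marker transcript of their group, and without untreated replicate 1 or 3, which had the least of theirs (33440 and 68310). With the adipocyte level as a covariate Nnmt passed, with a log2 fold change of 0.81. E2f1, Elk4, Rela, Foxo1, Ndufa9, Hdac9, Hdac4, Hdac7 and Parp2 passed the adjusted test at 1 day under each of 11 alternatives and with each of 10 single libraries left out, but of these 9 only Elk4 also met the criterion of a 1.5-fold change with an unadjusted p under 0.05. Hic1, Rps19bp1, Acadl, Mlycd and Nnmt each lost the call under at least 1 alternative and at least 4 of the omissions, with limma adjusted p up to 0.125.

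**Figure D5:**
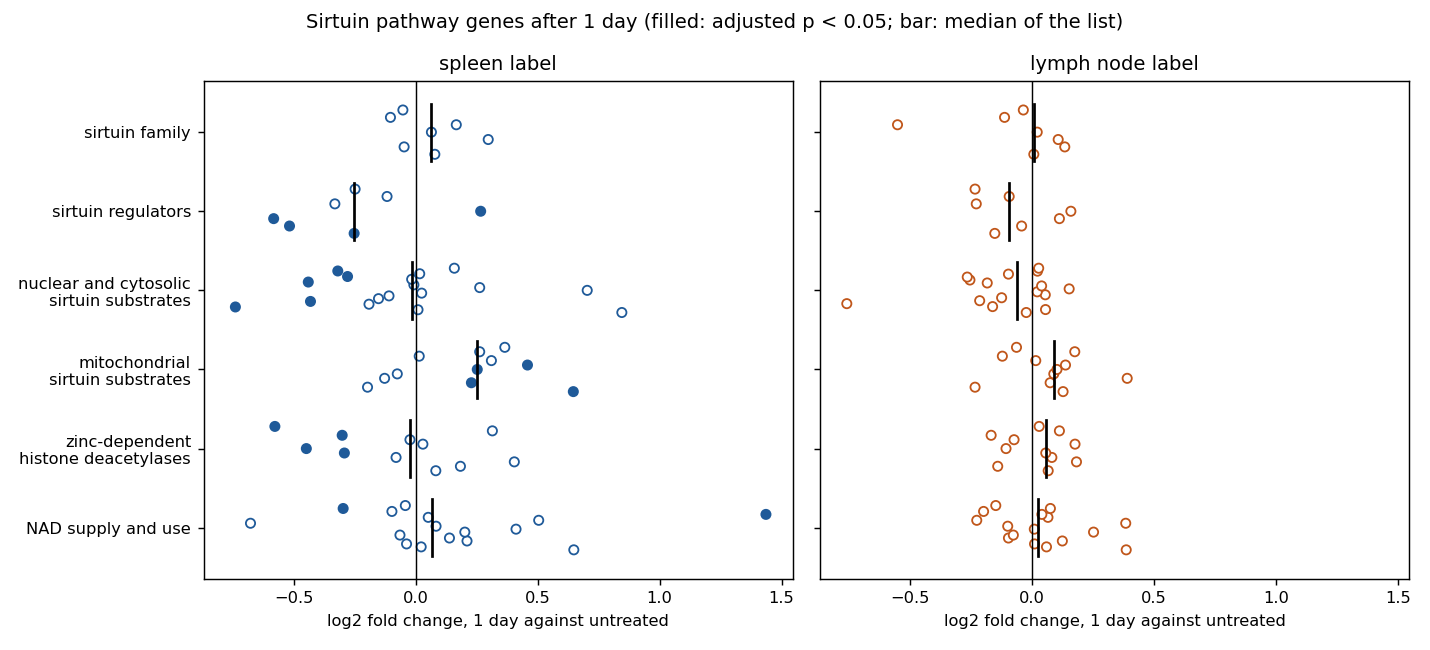
Log2 fold change at 1 day against untreated (x axis) of every tested gene of 6 lists (y axis) under each label, with filled points for adjusted p under 0.05 and a bar at the list median. Under the spleen label 0 of 7 sirtuins are filled and genes of the other 5 lists are, and under the lymph node label no point is filled.

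At 3 days under the spleen label, beside 2.82% of all genes higher and 2.74% lower, 0 genes of these 5 lists rose. E2f1 fell by 0.49 (limma adjusted p = 0.0261), 1 of 7 regulators. Of the 17 genes on the nuclear and cytosolic list, which also holds the SIRT7 partner gene Elk4, 4 fell. They were led by Elk4 (-0.60), Foxo3 (-0.43) and Rela (-0.36), with limma adjusted p of 0.0469, 0.0333 and 0.0443. Of the 11 zinc-dependent deacetylases 1 fell, Hdac7 (-0.27, limma adjusted p = 0.0392). None of the mitochondrial or NAD genes passed (0 of 11 and 0 of 16). With TMM scaling the genes called in all were 736 higher and 308 lower instead of 514 and 499, edgeR gave 678 and 406, and Elk4, Rela and Hdac7 lost the call under both. Each of the 3-day calls named was also lost when any of 6 to 9 single libraries of 10 was left out, with limma adjusted p up to 0.142. Leaving out 1 library took the count that fell to between 0 and 4 in each of the lists of regulators, nuclear and cytosolic substrates and zinc-dependent deacetylases. Without replicate 1 at 3 days, 4 genes fell in each of these lists, 1 deacetylase and 1 mitochondrial gene rose, and the genes called in all numbered 2782 instead of 1013.

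At 14 days under the spleen label 0 genes of the 5 lists passed, as did 0 of all genes by limma, of which 510 had an unadjusted p under 0.05 (edgeR called 0 and DESeq2 1). With the lymph node label, 0 list genes passed at 1 day, beside 0.884% of all genes higher and 0.329% lower. Nadk2, the mitochondrial NAD kinase, fell from 694 ± 76.6 (n = 3) to 476 ± 48.7 at 3 days (n = 4), a log2 fold change of -0.54 (limma adjusted p = 0.0127), and to 495 ± 45.3 at 14 days (n = 4), a change of -0.48 (limma adjusted p = 0.0370). It was 1 of 16 NAD genes to fall at each of these durations, beside 0.906% and 0.681% of all genes lower, and both calls were lost without untreated replicate 2 or 3, the later one also without replicate 1 or 2 at 14 days (limma adjusted p up to 0.239). The later call was also lost with no filter, with a replicate block and in a fit of the compared groups alone, and both missed the criterion of 1.5-fold change and unadjusted p. The sum of 8 erythroid markers in these groups was 21240 to 31940 untreated, 2263 to 12040 at 3 days and 9390 to 14160 at 14 days, and its part in the Nadk2 values was not tested. Of the remaining 4 lists 0 genes passed at 3 or 14 days.

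Between the labels in untreated libraries, the same lists were read against 32.6% of all genes higher and 31.4% lower under the spleen label. Higher were 4 and lower 1 of 7 regulators, and 10 and 4 of the 17 genes on the nuclear and cytosolic list, Elk4 included. For mitochondrial substrates the counts were 4 and 2 of 11, for zinc-dependent deacetylases 4 and 2 of 11 and for NAD genes 5 and 7 of 16.

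For each member, the pair of genes with the most similar pattern over the 20 libraries of the spleen label was taken from 14153 candidates, as a description without a test. Pearson r was 0.88 and 0.83 for Sirt7 with Pdxp and Trim11, 0.87 and 0.82 for Sirt2 with Procr and Clptm1, and 0.83 and 0.82 for Sirt3 with Pecr and Rtn4. It was 0.81 and 0.81 for Sirt5 with Hdac11 and Pdgfd, 0.80 and 0.78 for Sirt1 with Zfp300 and Dock11, 0.77 and 0.75 for Sirt4 with Sh2d4b and Dcaf6, and 0.72 and 0.70 for Sirt6 with Ebp and Espn. Over the 13 libraries of the lymph node label only Trim11 kept a value of that size with its member Sirt7 (0.82), Procr had 0.54 with Sirt2 and Dock11 0.52 with Sirt1, and the other 11 lay between -0.53 and 0.44. All of these values share libraries, scaling and the differences in cell makeup given above.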

How the data were processed

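RNA-seq libraries of polyadenylated RNA, 33 in all, were analysed. The authors deposited 1 table of DESeq2-normalised read counts, a signal per gene on a linear scale, and the submitters' processing notes name FastQC, Picard, SAMtools, STAR 2.4.0, DESeq2 and mm10. The counter and its strand setting are not given in the sources used here. Columns were matched to samples by description, and groups came from titles. Unmapped columns numbered 0. Deposited values were whole multiples of a step per library (within 0.01 of a read, 100.0% of values), which returned the whole reads. Size factors recomputed within the spleen label matched the deposited ones (ratio 0.9999 to 1.0001), so that label had been scaled apart from the other. For the lymph node label the ratio was 0.9621 to 0.9719, so its deposited factors were not exactly those recomputed from its 13 libraries.

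Two-sided tests used limma 3.58.1 (trend option, R 4.3.3) on log2 values after adding 1, in a joint fit of the 4 groups per label, on genes with a mean of at least 10, and Benjamini-Hochberg adjustment over all genes tested (threshold 0.05). Adding 1 shrinks the fold change of low genes. Alternatives covered pseudocounts, the filter, scaling, weights per library, a block for replicate number, the compared groups alone, omission of each library, a criterion of 1.5-fold change and unadjusted p, edgeR 4.0.16 and DESeq2 1.42.0 on recovered reads. Comparisons of the labels with each other were run under fewer of these alternatives. An adipocyte covariate, and library omission for the differences between labels, were added after the data were seen. The fit was tested on simulated data. The members and gene lists were chosen with earlier results of these data known. Named list genes are at most 3 per list and comparison against untreated, the called genes of largest change. Where a symbol had several entries (Lipe, Pax5) the highest was used. Of 56 replicate pairs, 0 were identical.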

Additional observations from a re-analysis of the deposited data

Results flagged for a closer look

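In 7 of the 42 sets of member values looked at (7 members in the 6 groups of 4 or 5 libraries), 1 library stood far from the rest of its group, its gap to the nearest library exceeding Dixon's 95% critical share of the range. Chance gives about 1 in 20 such sets. All 7 were under the spleen label, which held 4 of the 6 groups. The sets share libraries, and the rate of such sets over all genes was not computed.

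At 1 day, replicate 2 had 432 normalised read counts of Sirt5, where the others had 237 to 278, and 233 of Sirt4, where the others had 147 to 170. It was the library with the most adipocyte marker transcript (456000, where the others of the group had 106700 to 237000). At 1 day, replicate 4 was low in Sirt2 (1187, the others 1323 to 1372) and in Sirt6 (236, the others 284 to 298). At 3 days, Sirt2 was at 1304 in replicate 4, where the others had 1187 to 1212, and Sirt6 was at 237 in replicate 1, where the others had 286 to 292. At 14 days, Sirt2 was at 1207 in replicate 2, where the others had 1290 to 1316. Leaving out any of these libraries moved 0 members past the test.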

How the results depend on the processing

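In the 12 comparisons within a label and the 3 differences between labels, 0 members passed under each alternative run, each single library left out included. The criterion of 1.5-fold change and unadjusted p was not run for the differences between labels. Sirt5 at 1 day had a 1.645-fold difference there (limma unadjusted p = 0.00315). For untreated libraries of the labels, where 4 members passed, the count was 3 to 4 under the other settings and 2 to 4 with 1 library left out (2 without lymph node label replicate 1, without lymph node label replicate 3, and without spleen label replicate 4). Fits that left 1 library in a group assumed it to vary like the others.

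Pairing by replicate number was not seen, though the spread of these values is too wide to exclude it. Under the spleen label the deviations of same-numbered libraries correlated with a median of 0.04 (-0.50 to 0.47), and those of different-numbered ones with -0.01 (-0.56 to 0.55). Under the lymph node label the medians were -0.01 and 0.01. With the number as a block, 0 members passed in all 12 comparisons, Sirt5 at 1 day under the lymph node label changed by -0.62 (limma adjusted p = 0.108), and the genes called there numbered 132 instead of 221.

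Counts over all genes moved with the setting. Changes of members moved too, as that of Sirt1 at 1 day under the lymph node label, which ran from -0.20 to 0.21 with 1 library left out. At 3 days under the spleen label, 1013 genes became 140 in a fit of the compared groups alone and 4722 with library weights, and for 14 days against 3 days 192 became 3 and 3137. At 1 day under that label 3030 became 1497 with the rule of unadjusted p and 1.5-fold change, under which the lymph node label's 221, 226 and 144 (1, 3 and 14 days) became 894, 615 and 630. Depth limits Sirt4 most under the spleen label (77 to 289 reads per library) and Sirt5 under the lymph node label (128 to 269).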
